A study of Mus musculus with 7 samples.

Results

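The open chromatin around 9 genes that control the G1 phase of the cell cycle was examined in B-lineage progenitors of the mouse. The genes were the D cyclin genes Ccnd1, Ccnd2 and Ccnd3, the kinase genes Cdk4 and Cdk6, and the Cdk inhibitor genes Cdkn1a, Cdkn1b, Cdkn2a and Cdkn2c. ATAC-seq peaks that overlapped a gene body or the 20 kb on either side of it were taken (mm10, GENCODE M21), and peaks of different libraries that overlapped were merged into 1 region. This gave 153 regions, built from 831 of the 647973 peaks of the series and making up 153 of its 145247 regions. The rule used gene position and no measured value.

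Each of 7 groups held 1 library, so no spread between mice could be estimated and no comparison carried a test. WT pre-proB, WT proB and WT preB cells were sorted from Ergfl/fl mice without Cre. Erg KO pre-proB cells came from Rag1CreT/+;Ergdelta/delta mice, in which Cre is expressed in lymphoid cells from the common lymphoid progenitor onward and removes Erg, an ETS-family transcription factor. Rescue pre-proB, proB and preB cells carried the same deletion and IgHVH10tar, a knock-in heavy chain allele that is already rearranged. Every group carried Erg alleles that were floxed or, after Cre, deleted, and neither a Cre-only nor a heavy-chain-only library was among the 7. Rescue stages were taken from the titles, which the source names contradict for all 3 Rescue libraries. The labels do not give the age of the mice. The peak lists hold no reads over the deleted exon, so the deletion was not checked here. Values of 3 WT or 3 Rescue libraries are given in the order pre-proB, proB, preB.

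D cyclins bind Cdk4 and Cdk6, and the resulting kinases phosphorylate the retinoblastoma proteins and release E2F factors, which starts the transcription needed for S phase. The INK4 proteins (p16Ink4a from Cdkn2a, p18Ink4c from Cdkn2c) bind Cdk4 and Cdk6 and keep them from D cyclins, whereas p21 (Cdkn1a) and p27 (Cdkn1b) bind cyclin-Cdk complexes more widely. In the bone marrow, progenitors divide at the proB and large preB stages under IL-7 and pre-B receptor signals and leave the cycle as small preB cells rearrange their light chain genes, and cyclin D3 is needed for the preB expansion.

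ATAC-seq counts fragments released from accessible DNA. The value given below is the fold of a peak, the summit pileup plus 1 over the genome-wide background pileup plus 1 in the same library. Background pileups lay between 3.49 and 4.60, the weakest called folds between 2.32 and 2.63, and the weakest called peaks had 10 to 12 fragments at the summit. A lower fold in a bulk library can mean fewer cells with the region open or less access in each cell, and these cannot be told apart. Ratios between libraries were divided by the median ratio over the regions of coding genes with a peak in both, and intervals are at the 95% level and cover counting error only. Promoters of 10 B-lineage marker genes were open in 9, 10 and 10 cases in WT, in 6 in the Erg KO library and in 7, 10 and 10 in Rescue. Of 10 T-lineage promoters, 5, 6 and 4 were open in WT, 8 in the Erg KO library and 8, 6 and 4 in Rescue. Of 10 NK and innate lymphoid promoters 4 to 7 were open, of 10 myeloid promoters 3 to 6, of 10 plasmacytoid dendritic promoters 8 to 10 and of 10 erythroid promoters 5 or 6. Folds differed by stage in the T, NK, myeloid, dendritic and erythroid lists. A library without a peak was taken as lower here. Cd3g, Cd8a, Klrb1c, Klrd1, Nkg7, Il2rb, Itgam, Cebpa, Csf3r, Epor and Ank1 were higher in each pre-proB library than in any later one. So were Siglech (101 to 113 against 18.6 to 54.5), Bst2, Irf8, Ccr9, Tlr7 and Cd209d. Gata3, Tcf7, Cd5, Eomes, Csf1r, Tcf4, Spib and Tlr9 had the opposite order, and the other genes of these lists neither. A link to the regions below was not tested. No library had a promoter peak at Cd3e, Trbc1, Ncr1, Gzmb, Elane, S100a8, S100a9, Ly6g, Gata1, Hbb-bs, Hba-a1 or Alas2.

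The sequences of 8 elements are given because the stage differences described below turn on them. They were chosen with their values known. Each is 251 bases centred on the summit of the strongest peak, on the plus strand of GRCm38, and none overlaps a RefSeq exon. Capitals mark any match to the 9 motifs that were searched, which are spelled out with their counts at the end. The first 4 lie in regions with a higher fold in the proB and preB libraries than in the pre-proB libraries, in Ccnd1 downstream sequence, Ccnd3 intron 1 and Cdk6 intron 5, and the others had the opposite order.
Ccnd1 downstream element, chr7:144928643-144928893: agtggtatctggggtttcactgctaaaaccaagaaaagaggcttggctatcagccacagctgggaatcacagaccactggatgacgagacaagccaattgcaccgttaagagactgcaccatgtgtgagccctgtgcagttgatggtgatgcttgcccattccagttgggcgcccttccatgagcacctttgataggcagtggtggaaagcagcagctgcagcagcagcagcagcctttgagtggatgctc
Ccnd3 intron 1 element, chr17:47553050-47553300: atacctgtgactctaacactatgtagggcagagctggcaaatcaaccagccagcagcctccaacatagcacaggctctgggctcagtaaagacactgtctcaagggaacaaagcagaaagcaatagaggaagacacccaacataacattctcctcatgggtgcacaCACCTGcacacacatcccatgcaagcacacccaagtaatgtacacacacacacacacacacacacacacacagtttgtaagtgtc
Cdk6 intron 5 element, chr5:3494155-3494405: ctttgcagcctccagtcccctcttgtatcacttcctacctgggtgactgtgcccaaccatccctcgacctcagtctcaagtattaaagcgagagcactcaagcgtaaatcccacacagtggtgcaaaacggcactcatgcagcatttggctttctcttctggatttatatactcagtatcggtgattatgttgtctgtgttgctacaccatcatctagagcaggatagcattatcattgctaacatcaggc
Cdk6 second intron 5 element, chr5:3497589-3497839: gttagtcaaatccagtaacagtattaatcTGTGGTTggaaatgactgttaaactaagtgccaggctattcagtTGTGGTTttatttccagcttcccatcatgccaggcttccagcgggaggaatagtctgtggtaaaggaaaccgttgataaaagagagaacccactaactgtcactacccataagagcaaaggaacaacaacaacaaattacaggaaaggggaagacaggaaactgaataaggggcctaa
Cdk6 intron 4 element, chr5:3460391-3460641: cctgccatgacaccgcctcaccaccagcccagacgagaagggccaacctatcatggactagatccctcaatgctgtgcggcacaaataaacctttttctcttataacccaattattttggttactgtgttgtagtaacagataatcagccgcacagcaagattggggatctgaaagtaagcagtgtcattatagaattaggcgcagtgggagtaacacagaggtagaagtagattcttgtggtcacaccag
Cdk6 second intron 4 element, chr5:3463227-3463477: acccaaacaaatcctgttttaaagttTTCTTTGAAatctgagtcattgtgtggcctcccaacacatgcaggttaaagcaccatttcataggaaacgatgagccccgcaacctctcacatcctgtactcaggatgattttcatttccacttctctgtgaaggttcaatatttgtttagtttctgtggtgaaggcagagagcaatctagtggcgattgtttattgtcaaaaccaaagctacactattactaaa
Cdkn1a upstream element, chr17:29082019-29082269: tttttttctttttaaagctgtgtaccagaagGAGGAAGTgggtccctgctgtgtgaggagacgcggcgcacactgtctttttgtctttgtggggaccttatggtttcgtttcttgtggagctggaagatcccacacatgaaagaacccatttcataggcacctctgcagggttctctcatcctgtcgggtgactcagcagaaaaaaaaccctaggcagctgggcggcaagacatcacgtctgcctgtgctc
Cdkn2c downstream element, chr4:109642613-109642863: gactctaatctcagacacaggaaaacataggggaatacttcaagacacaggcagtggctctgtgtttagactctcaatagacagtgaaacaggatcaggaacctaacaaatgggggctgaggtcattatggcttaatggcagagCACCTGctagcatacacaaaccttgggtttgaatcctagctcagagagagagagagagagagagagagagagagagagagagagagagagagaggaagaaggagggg

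The 153 regions were spread unevenly over the genes. Cdk6, the longest gene, held 46 and Ccnd3 29, followed by Cdkn2a with 18. Ccnd2, Cdkn1a and Cdkn1b held 11 each, Cdk4 10, Ccnd1 9 and Cdkn2c 8. Per 100 kb of window the range was 16.4 at Ccnd2 to 29.9 at Cdkn2a. WT pre-proB had a peak in 97 regions, WT proB in 115 and WT preB in 110. The Erg KO library had 102, and Rescue cells had 102, 106 and 107. A peak was present in all 7 libraries in 72 of 153 regions (47.1%), against 34.6% of the 111902 regions within 20 kb of any coding gene. In 22 regions (14.4%) a single library had a peak, against 16.9%. Of the 153 regions, 14 overlapped a promoter of one of the 9 genes, 24 overlapped only the promoter of another gene, and 115 overlapped none, 67 of these with the summit in an intron. In 41 regions the fold stayed under 5 in every library, so their presence or absence rests on few fragments.

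All 9 genes had a promoter peak (within 1000 bp of an annotated start) in all 7 libraries, as did 58.7% of 21938 coding genes. Where a gene has several promoters, the values in this paragraph are those of its strongest promoter peak in a library. By this measure the Cdkn1b promoter, of the p27 gene, had the narrowest range of the 9, between 87.3 in Rescue proB and 108 in Rescue pre-proB, a 1.24-fold range. The Cdkn1a promoter peak was the weakest of the 9, with folds from 7.51 in the Erg KO library to 12.9 in WT proB. Its counting intervals in these libraries were 5.42 to 10.2 and 10.1 to 16.3. They overlapped, which does not settle whether the folds differ, and no ratio interval was computed for this pair. The strongest Cdkn2a promoter peak, that of Arf, had the widest range of these, 2.48-fold, with 17.1, 16.1 and 14.3 in the WT, Erg KO and Rescue pre-proB libraries and 31.6 to 35.4 in WT preB and proB. The pre-proB libraries were all low and the later libraries all high at this promoter. The Cdkn2c promoter followed the stages too, with 63.2, 84.9 and 116 in WT and 76.5, 94.2 and 124 in Rescue, and 68.5 in the Erg KO library. Cdk4 gave 74.1, 93.8 and 116 in WT, 65.6 in the Erg KO library and 75.2, 87.5 and 103 in Rescue. At Cdk6 the folds were 37.6, 36.9 and 57.2 in WT, 33.7 in the Erg KO library and 45.9, 48.3 and 67.9 in Rescue. By deposited fold the preB library was thus the highest of its genotype at Cdkn2c, Cdk4 and Cdk6. By that measure it was also the highest at Ccnd3, with 45.9, 40.8 and 55.5 in WT and 51.6, 54.3 and 59.4 in Rescue. After centring, the Rescue preB to proB ratio was 0.994 at Ccnd3, so Rescue preB was not above Rescue proB there. It was 1.07 at Cdk4, 1.19 at Cdkn2c and 1.28 at Cdk6. Ccnd1 and Ccnd2 showed no such order. Ccnd1 ranged from 30.1 in Rescue proB to 40.7 in Rescue pre-proB, and Ccnd2 from 29.8 in WT preB to 48.6 in WT proB. Among the 3 pre-proB libraries the strongest promoter peak of a gene differed by at most 1.39-fold, at Cdkn1a, and by as little as 1.09-fold at Ccnd2. The Ink4a promoter of Cdkn2a and the first Ccnd3 promoter were weaker and varied more over the 7 libraries, as given below.

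**Figure D1:**
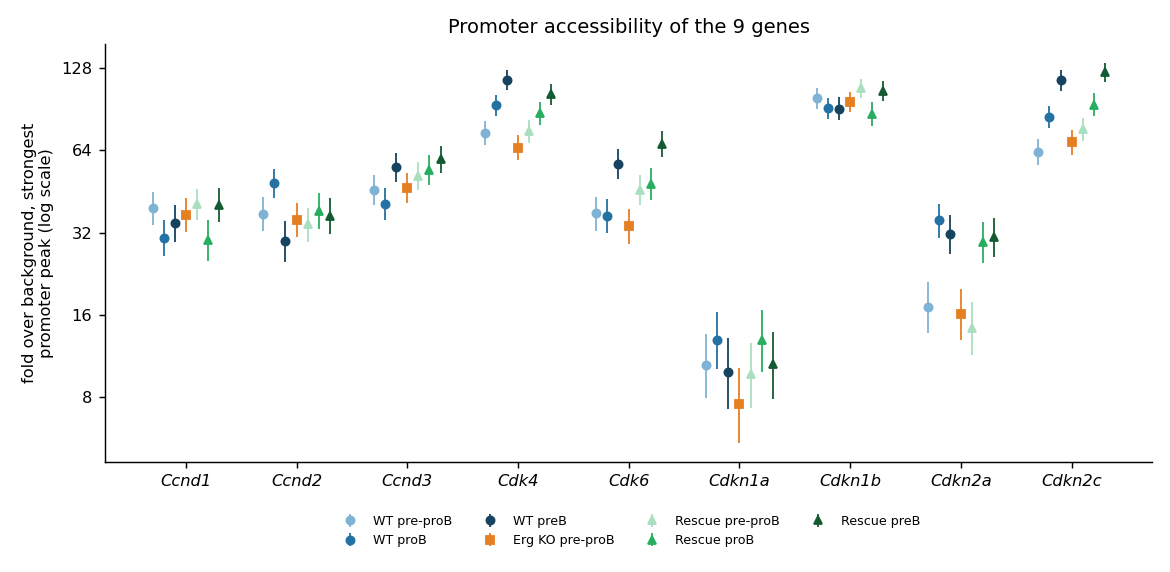
Fold over background of the strongest promoter peak of each gene (vertical axis, log scale) in the 7 libraries, 1 point per library, with bars for the 95% counting interval. The Cdkn2a points fall into a low set of 3 pre-proB libraries and a high set of 4 later libraries, while the 7 Cdkn1b points lie close together.

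Ccnd1 (ENSMUSG00000070348, chr7:144929931-144939925, minus strand), which encodes cyclin D1, had the region with the highest WT proB to pre-proB ratio among the 84 regions with a peak in both. The element lies downstream of the gene at chr7:144927639-144929209, 11.1 kb from the start site. Its fold was 3.68, 43.2 and 52.8 in WT. Neither of the Erg-deficient pre-proB libraries had a peak there, and Rescue proB and preB had 26.7 and 40.02. The element was close to background at pre-proB and among the strong sites of the locus at both later stages, with a centred ratio of WT proB to WT pre-proB of 12.2 (7.94 to 22.03). A second region with this order covered the last exon at chr7:144931646-144933108, with 5.23, 16.6 and 22.4 in WT, 4.95 in the Erg KO library and 5.18, 13.8 and 19.2 in Rescue. The WT ratio there was 3.304 (2.17 to 5.47). Just upstream of the promoter, at chr7:144941157-144943911, the fold was 27.5, 42.5 and 55.5 in WT, 20.3 in the Erg KO library and 26.1, 44.8 and 68.3 in Rescue. The Erg KO value was the lowest of the 7 and the Rescue preB value the highest. In intron 4, at chr7:144933383-144934363, WT pre-proB had 5.43 and the Erg KO library 3.85, and Rescue pre-proB had no peak. The promoter peak itself had a lower fold in WT proB (30.6, interval 26.2 to 35.7) than in WT pre-proB (39.4, interval 34.1 to 45.1). These counting intervals overlapped, which does not settle whether the folds differ.

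Ccnd3 (ENSMUSG00000034165, chr17:47505051-47599691, plus strand) encodes cyclin D3. It has an upstream start site cluster and 2 internal ones, and its long first intron held 18 of its 29 regions. The first promoter, at chr17:47504329-47505564, had 9.89, 18.5 and 24.99 in WT, 10.3 in the Erg KO library and 10.9, 21.2 and 30.9 in Rescue. The 3 pre-proB values lay together, and the order pre-proB, proB, preB held in both genotypes. The first internal promoter, at chr17:47592949-47595109, was stronger and flatter, between 40.8 in WT proB and 59.4 in Rescue preB. Within 1000 bp of the second internal start, 47596068, the strongest peak had 26.2, 40.8 and 55.5 in WT. It had 22.2 in the Erg KO library and 24.5, 15.4 and 11.1 in Rescue. The WT proB and preB values are those of the first internal promoter peak, which reached into this window, so the libraries cannot be compared there. In intron 1, 48.1 kb from the first start site at chr17:47552707-47553497, the fold was 4.07, 27.9 and 35.9 in WT. No peak was called there in Erg KO or Rescue pre-proB, and Rescue proB and preB had 21.6 and 30.5. This element therefore had the profile of the Ccnd1 downstream element, and the WT proB to pre-proB ratio was 7.13 (4.65 to 12.5). A weaker intronic region at chr17:47529504-47530057 had the same pattern of presence, with 4.07, 7.38 and 11.6 in WT, 8.24 and 13 in Rescue proB and preB, and no peak in the Erg-deficient pre-proB libraries. At chr17:47535686-47536339 the peaks began at the proB stage and were stronger in Rescue, 9.8 and 12.4, than in WT, 4.06 and 6.58.

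The opposite order occurred in the same intron at chr17:47526349-47527210, where the 3 pre-proB libraries had 12.2, 13.6 and 16.3, Rescue proB had 3.56 and the other later libraries had no peak. Downstream of the gene at chr17:47599796-47602134, the region was strongest in WT proB, at 23.8, against 6.203 in WT pre-proB and 6.79 in WT preB, and Rescue proB had 9.8. The strongest sites of the gene were shared by all libraries, for example the intronic region at chr17:47541593-47543188, with folds between 73.9 and 98.8. Peaks at chr17:47554485-47555019 were present in WT preB (7.23), Rescue proB (3.34) and Rescue preB (8.67) alone, and a peak at chr17:47547167-47547513 was present in Rescue preB alone (5.98). Upstream at chr17:47485708-47486093, peaks of 3.68, 5.35 and 4.45 were called in WT pre-proB, WT proB and Rescue proB, and at chr17:47515457-47515902 WT pre-proB was the single library without a peak.

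**Figure D2:**
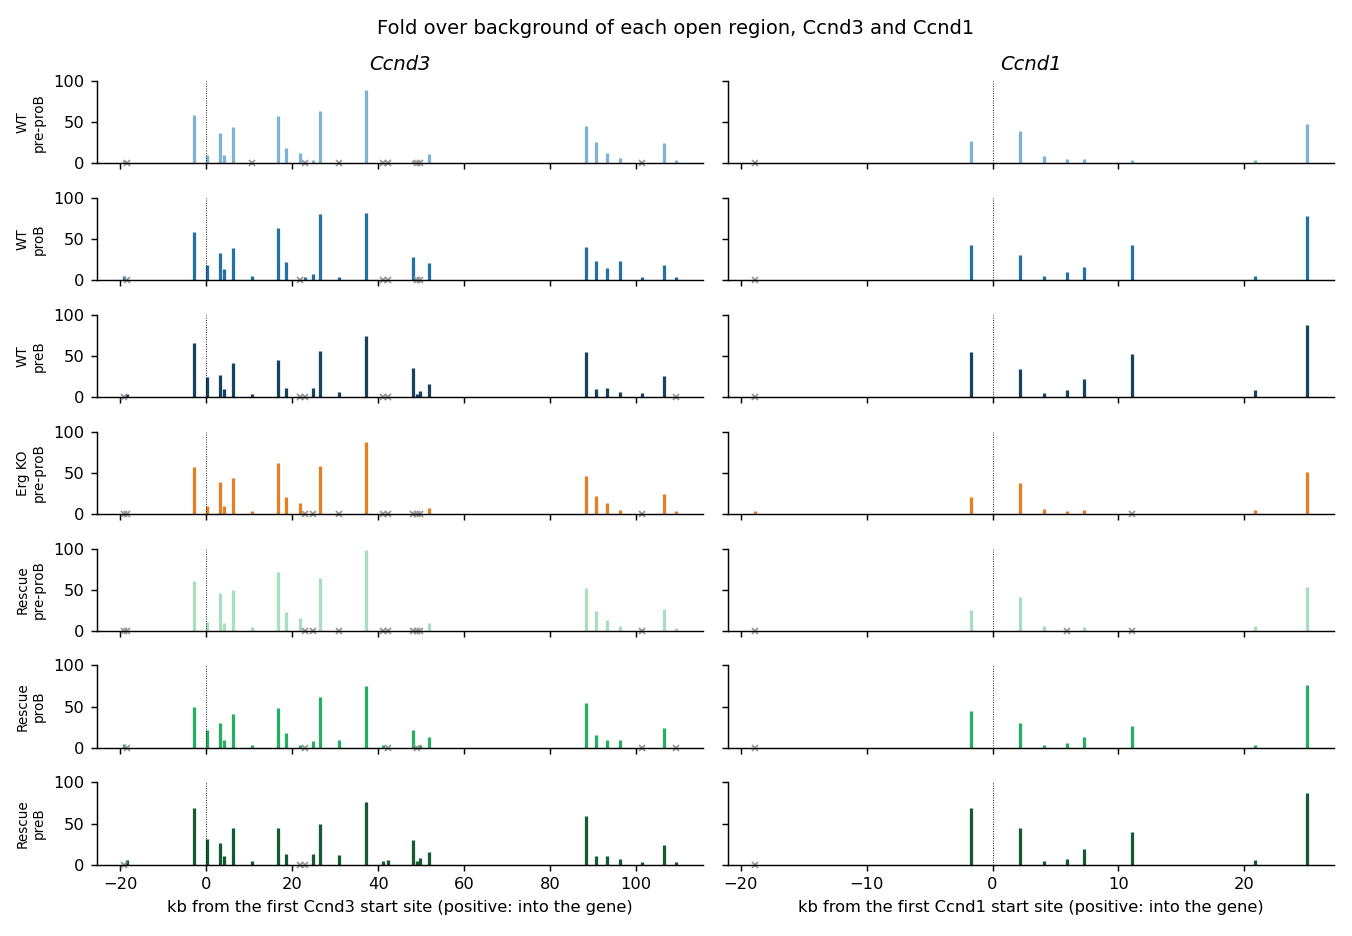
Fold over background (vertical axis, linear) of each open region of Ccnd3 (left) and Ccnd1 (right) against the distance of its summit from the first start site in kb, 1 row per library, with crosses where a library had no peak. The bar 48.1 kb into Ccnd3 and the bar 11.1 kb from the Ccnd1 start stand out in the proB and preB rows and are absent or short in the 3 pre-proB rows.

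Ccnd2 (ENSMUSG00000000184, chr6:127125162-127152193, minus strand), the gene of cyclin D2, had none of the 23 regions that were at least 2 times higher in WT proB than in WT pre-proB. Its promoter region, chr6:127148988-127156135, had 37.4, 48.6 and 29.8 in WT, 35.5 in the Erg KO library and 34.3, 38.5 and 36.9 in Rescue, with WT proB the highest. An upstream element at chr6:127162596-127163327 had 30.4, 23.1 and 26.5 in WT, 39.4 in the Erg KO library and 41.3, 32.7 and 34.9 in Rescue. By deposited fold all 4 Erg-deficient libraries lay above all 3 WT libraries there. The centred ratio of Erg KO to WT pre-proB was 1.25 (1.01 to 1.55). The region was chosen after its values were seen, and how many regions separate the genotypes in either direction was not counted. Farther upstream, chr6:127165576-127166073 was open in the 3 pre-proB libraries alone, at 6.98 in WT, 6.41 in Erg KO and 8.399 in Rescue. Peaks in intron 3 at chr6:127143090-127143507 were called in Erg KO (4.21) and Rescue pre-proB (5.36) and in no other library. At chr6:127122491-127122813, downstream, WT proB, Rescue pre-proB and Rescue preB had 3.51, 4.29 and 5.16. The largest range in the window belonged to the promoter of the neighbouring gene Tigar, between 108 and 183.

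Cdk6 (ENSMUSG00000040274, chr5:3341485-3531008, plus strand) encodes the kinase partner of D cyclins that is abundant in blood progenitors, and its introns carried differences in both directions. In intron 5, 150.4 kb from the start site at chr5:3492995-3495543, the fold was 8.14, 51.1 and 48.7 in WT, 7.696 in the Erg KO library and 7.15, 38.5 and 51.6 in Rescue. The 3 pre-proB values lay together, far under the 4 later ones, and the WT proB to pre-proB ratio was 6.54 (4.79 to 9.505). A neighbouring region, chr5:3497054-3498333, peaked at the proB stage, with 8.53, 48.4 and 13.8 in WT, 5.68 in the Erg KO library and 6.61, 20.3 and 9.49 in Rescue. From proB to preB its fold was 3.66 (2.802 to 4.97) times lower in WT and 2.35 (1.64 to 3.48) times lower in Rescue. Regions chr5:3381829-3384501 in intron 2 and chr5:3418694-3421831 in intron 3 were higher at the later stages by smaller amounts, for instance 21.7, 39.9 and 46.2 in WT and 20.9, 36.5 and 48.9 in Rescue at the second of them.

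In intron 4 the order was reversed. The region at chr5:3460198-3461948 had 34.9, 4.8 and 4.16 in WT, 28.6 in the Erg KO library and 32.9, 16.04 and 9.49 in Rescue. The pre-proB libraries were the 3 highest, and the fold was 6.98 (4.74 to 11.5) times lower in WT proB than in WT pre-proB. Rescue proB kept more of it than WT proB, by 3.303 (2.12 to 5.58) after centring. Next to it, chr5:3463105-3463710 had 13.96, 14.1 and 13.6 in the WT, Erg KO and Rescue pre-proB libraries, 5.35 in Rescue proB and no peak in the other 3 libraries. Intron 2 held a further region of this kind at chr5:3355279-3356663, with 35.3, 14.6 and 27.6 in WT, 32.8 in the Erg KO library and 40.03, 13.6 and 13 in Rescue. WT preB was higher than WT proB there, and Rescue preB stayed at the level of Rescue proB. In the same intron, chr5:3363168-3363827 was strongest in WT proB (11.4) and had no peak in Rescue pre-proB or Rescue proB. At chr5:3546292-3546671, downstream of the gene, peaks of 7.38 and 4.16 were called in WT proB and preB alone. In intron 5, chr5:3498644-3499029 had peaks of 4.603 in WT preB, 4.58 in the Erg KO library and 6.01 and 4.95 at the later Rescue stages. Of the 46 Cdk6 regions 12 were open in a single library, as were 22 of the 153 regions of all 9 genes and 16.9% of the regions of all coding genes.

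**Figure D3:**
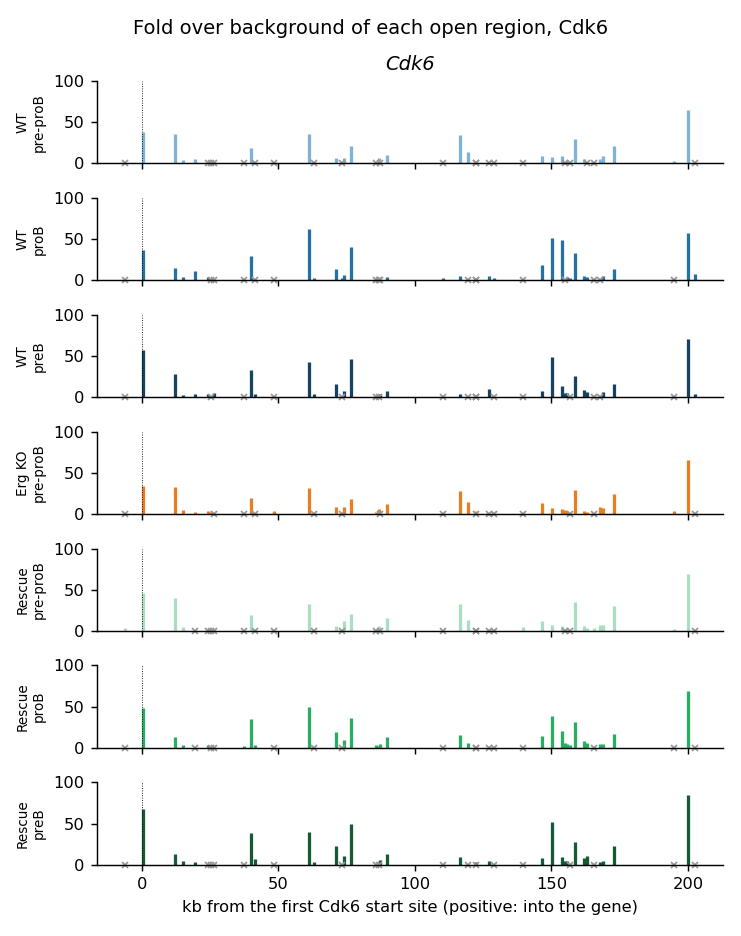
Fold over background (vertical axis, linear) of each open region of Cdk6 against the distance of its summit from the first start site in kb, 1 row per library, with crosses where a library had no peak. The bar at 150.4 kb is tall in the proB and preB rows and short in the 3 pre-proB rows, and the bar at 116.6 kb is tallest in the pre-proB rows.

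Cdk4 (ENSMUSG00000006728, chr10:127063534-127067920, plus strand), the second kinase gene, had the strongest peak of its window at its promoter, chr10:127062753-127064593, with the values given above. The preB library exceeded the pre-proB library of the same genotype, 116 against 74.1 in WT and 103 against 75.2 in Rescue. Downstream, a region over the Tspan31 promoter at chr10:127069108-127071392 had 50.6, 39.7 and 9.64 in WT, 50.02 in the Erg KO library and 52.9, 22.1 and 15.9 in Rescue. It was 4.305 (3.15 to 6.23) times lower in WT preB than in WT proB. The weak region at chr10:127072263-127072606 had folds of 5.13 to 6.83 in the 5 pre-proB and proB libraries and no peak in either preB library.

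Cdkn2a (ENSMUSG00000044303, chr4:89274471-89294653, minus strand) has 2 promoters, an upstream one for p19Arf, which stabilises p53, and one for p16Ink4a. More of its regions were open at the proB stage of WT than in any other library: 17 of 18, against 7 in WT pre-proB and 14 in WT preB. The Erg KO library had 9 and each Rescue library 10. Of the 111902 regions of all coding genes, 69476 were open in WT proB, 72169 in WT pre-proB and 57392 in WT preB. Many of the Cdkn2a peaks may be weak. The 31 regions of the 9 genes open in WT proB and not in WT pre-proB, 10 of them at Cdkn2a, had a median fold of 4.06. The Arf promoter, chr4:89294161-89296050, had 17.1, 35.4 and 31.6 in WT, 16.1 in the Erg KO library and 14.3, 29.6 and 30.7 in Rescue. The Ink4a promoter, chr4:89281889-89282729, was weaker, with 5.23, 11.8 and 16.2 in WT, 2.75 in the Erg KO library and 2.68, 9.35 and 8.25 in Rescue. Both promoters were lower in each pre-proB library than in any later one. In Rescue pre-proB a second peak, higher than the first, with a fold of 3.93 lay within 1000 bp of the Ink4a start, at chr4:89281211-89281429. The WT proB to pre-proB ratio was 2.16 (1.68 to 2.84) at the Arf promoter and 2.35 (1.499 to 3.95) at the Ink4a promoter. The adjoining promoter of Cdkn2b, a further INK4 gene, lies in the same window at chr4:89310035-89311639 and had 17.1, 51.3 and 61.6 in WT, 17.04 in the Erg KO library and 16.6, 45.9 and 48.7 in Rescue. At all 3 promoters, the second Ink4a peak included, each pre-proB value lay below each later value. Between the Arf and Cdkn2b promoters, chr4:89306737-89307479 had 2.91, 9.78 and 11.2 in WT, 5.13 in the Erg KO library, no peak in Rescue pre-proB and 7.13 and 5.78 in Rescue proB and preB. In intron 1, chr4:89285694-89286350 had no peak in WT or Rescue pre-proB, 3.11 in the Erg KO library, 9.97 and 5.699 in WT proB and preB and 5.57 and 5.36 in Rescue proB and preB. The regions that WT preB had and Rescue preB lacked were led by chr4:89275056-89275577 in intron 2 (6.36 in WT preB) and chr4:89273352-89273975 downstream (5.92).

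Cdkn2c (ENSMUSG00000028551, chr4:109660876-109667189, minus strand), the p18Ink4c gene, combined a strong promoter that increased with stage, described above, with an element that was seen at the pre-proB stage only. This element, at chr4:109642494-109642988 and 24.5 kb from the start site, had 14.3 in WT, 12.5 in Erg KO and 14.1 in Rescue pre-proB cells, and no proB or preB library had a peak. The WT fold was at least 5.74 times lower in proB, taking the weakest called fold as the bound. A region at chr4:109656200-109658351, over the promoter of the non-coding gene 9630013D21Rik, had the same direction, with 61.6, 69.3 and 71.8 at pre-proB and 35.8 to 48.5 in the later libraries.

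Cdkn1a (ENSMUSG00000023067, chr17:29090976-29100727, plus strand), the p53 target gene that encodes p21, had no peak within 1000 bp of the start site at 29090979 in any library. Its promoter peaks were at the internal start sites 29093769 and 29093781, in chr17:29093338-29093960, with 10.5, 12.9 and 9.86 in WT, 7.51 in the Erg KO library and 9.65, 12.9 and 10.5 in Rescue. An element at chr17:29081267-29082439, 8.8 kb upstream, had 30.05, 32.8 and 36.8 in the WT, Erg KO and Rescue pre-proB libraries and 7.94 and 7.23 in the later WT and 10.02 and 10.3 in the later Rescue libraries. It was thus higher in each pre-proB library than in any later one. Downstream, chr17:29115850-29116599 had 3.102, 4.8 and 17.5 in WT, 5.497 in the Erg KO library and 6.79, 15.8 and 21.5 in Rescue. The high values began at preB in WT and at proB in Rescue, with a Rescue to WT proB ratio of 3.26 (2.09 to 5.505). The adjoining region chr17:29118070-29118500 had 5.04 in WT pre-proB, no peak in WT proB and 8.33 in WT preB, 10.3 in the Erg KO library and 8.58, 6.24 and 16.7 in Rescue.

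Cdkn1b (ENSMUSG00000003031, chr6:134920401-134925513, plus strand), which encodes p27, a FOXO target, had a promoter that was alike in the 7 libraries, as given above. The region over the promoter of the neighbouring non-coding gene Lockd at chr6:134926591-134929547 had 55.2, 54.97 and 56.7 in the WT, Erg KO and Rescue pre-proB libraries and 87.5 and 89.2 in the later WT and 80.2 and 94.3 in the later Rescue libraries. The upstream region chr6:134916172-134917727 had 14.2, 21.97 and 21.7 in WT, 8.795 in the Erg KO library and 10.7, 14.9 and 20.01 in Rescue. Each pre-proB value was below each later value at both regions.

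The transition from WT pre-proB to WT proB was considered over all regions of the 9 genes. Of the regions with a WT pre-proB peak, 13 of 97 (13.4%, interval 8.002 to 21.6%) had none in WT proB, against 32.3% over the windows of all coding genes. Of the WT proB regions, 31 of 115 (26.96%, interval 19.7 to 35.7%) had none in WT pre-proB, against 29.7%. Cdkn2a supplied 10 of the 31 and Cdk6 9. The 13 regions found in pre-proB alone were led by the Cdkn2c downstream element and the second Cdk6 intron 4 element, and the Cdkn2a intron 1 region was among the leading ones of the 31. By fold, 23 of 128 (17.97%) regions were at least 2 times higher in WT proB, against a background of 17.7%, and 11 of 128 (8.59%) were at least 2 times lower, against 23.2%. The share of higher regions was thus near the background and the share of lower regions under it. The 23 comprised 7 at Cdk6, 6 at Cdkn2a, 4 at Cdkn1a, 3 at Ccnd3, 2 at Ccnd1 and 1 at Cdkn1b, and 7 of them were bounds, with no peak in WT pre-proB. The 11 comprised 6 at Cdk6, 2 at Cdkn1a and 1 each at Ccnd2, Ccnd3 and Cdkn2c, and 7 of these were bounds with no WT proB peak. Only 3 of these 34 regions lay at a promoter of the 9 genes: the Arf and Ink4a promoters of Cdkn2a and a weak region beside the internal start sites of Cdkn1a. The lower regions were all away from promoters.

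From WT proB to WT preB the differences were fewer. Of the WT proB regions, 16 of 115 (13.9%, interval 8.75 to 21.4%) had no WT preB peak, against 25.2%, and of the WT preB regions 11 of 110 (10%, interval 5.68 to 17.02%) had no WT proB peak, against 9.43%. With lists cut to equal length the order turned, to 5.21% and 17.3%. The fold was at least 2 times higher in WT preB in 3 of 126 (2.38%) regions, against 5.02%, and at least 2 times lower in 9 of 126 (7.14%), against 13.4%. The 3 higher regions were the Ccnd3 intron 1 region chr17:47554485-47555019 and the 2 Cdkn1a downstream regions described above. Of the 9 lower ones, 4 were at Ccnd3, 3 at Cdk6 and 2 at Cdk4. They included the second Cdk6 intron 5 element and the Tspan31 promoter.

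In the Rescue libraries, which share no library with WT, the transition from pre-proB to proB gave 24 of 124 (19.4%) regions at least 2 times higher, against 15.8%, and 8 of 124 (6.45%) at least 2 times lower, against 19.8%. The median ratio was 0.828 before centring (-0.27 on the log2 scale), and without centring the counts were 18 and 14. Of the 23 regions that were higher in WT proB, 13 were also higher in Rescue proB, which is 56.5% of the WT regions and 54.2% of the Rescue regions. Of the 11 that were lower, 6 were also lower in Rescue, 54.5% of the WT and 75% of the Rescue regions. None was called in the opposite direction. Over all coding genes the shares were 57.9% of the WT and 64.4% of the Rescue regions for higher, and 72.1% and 84.2% for lower. Over 109 regions, the centred log2 ratios of the 2 genotypes had a Pearson r of 0.84, and over 80924 regions of all coding genes 0.88. These are descriptions across regions of single libraries, and regions of 1 gene are not independent. The Ccnd1 downstream, Ccnd3 intron 1 and Cdk6 intron 5 elements were high in proB of both genotypes. From Rescue proB to preB, 4 of 121 (3.31%) regions were at least 2 times higher, against 2.60%, and 3 of 121 (2.48%) lower, against 9.13%. Without centring, which moved the median by 0.14 on the log2 scale, the counts were 7 and 3. The second Cdk6 intron 5 element was again among the lower ones.

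**Figure D4:**
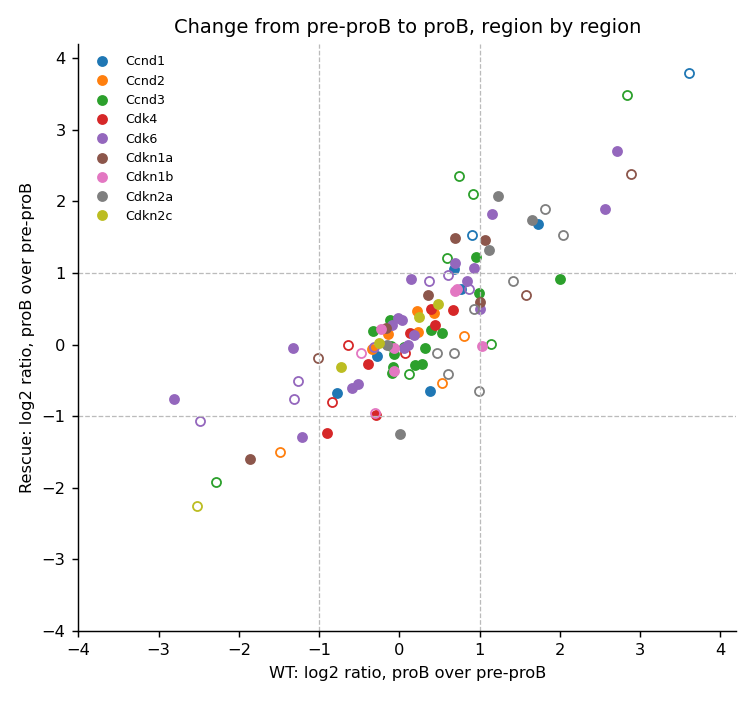
Centred log2 fold ratio of proB over pre-proB in Rescue (vertical axis) against that in WT (horizontal axis) for 109 regions, coloured by gene. Open symbols have no peak in at least 1 library, so that side is a bound, and dashed lines mark 2-fold. The points run along the diagonal (Pearson r of 0.84), and none lies past 2-fold in opposite directions.

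The comparison of Erg KO with WT pre-proB addressed whether chromatin at these genes differs when Erg is absent. At the 9 genes no region was called at 2-fold. Higher calls were 0 of 109, against 0.842% of background regions, and lower calls 0 of 109, against 1.62%. The 7 regions with a peak in WT alone and the 12 in Erg KO alone gave bounds. Their folds were at most 4.07 and 4.58, so a 2-fold difference there could not be decided. The upper Wilson limit for 0 of 109 is 3.40%. It counts these undecided regions as not called and takes regions of 1 gene as independent. It therefore sets no limit on the share of regions that differ. Without centring 1 region was at least 2 times higher, the Cdkn1a downstream region chr17:29118070-29118500, where the centred ratio was 1.96 (1.23 to 3.36). Over the 90 regions with a peak in both libraries the centred ratio ranged from 0.506 to 1.96 with a median of 0.964. The median for a gene lay between 0.911 at Ccnd1 and 1.13 at Cdkn1a. The 95% counting interval of 7 of the 90 ratios (7.78%) left out 1, with 2 above and 5 below. That share was not computed over all coding genes, so the 7 cannot be read as differences particular to these genes. The lowest ratio belonged to the Ink4a promoter, 0.506 (0.237 to 0.975). At the Ccnd1 upstream region chr7:144941157-144943911 it was 0.712 (0.549 to 0.919), and at the Cdkn1b upstream region chr6:134916172-134917727 0.599 (0.403 to 0.871). By presence, 7 of 97 (7.22%, interval 3.54 to 14.2%) WT regions had no Erg KO peak, against 6.20%, and 12 of 102 (11.8%, interval 6.86 to 19.4%) Erg KO regions had no WT peak, against 12.5%. With lists cut to 38232 peaks the latter share was 2.08%. The strongest fold among the WT-only regions was 4.07, at the Ccnd3 intron 1 regions chr17:47529504-47530057 and chr17:47552707-47553497, and among the Erg KO-only regions 4.58, at chr5:3498644-3499029. Of the 12 Erg KO-only regions 7 were at Cdk6. The elements that were high in WT proB and preB at Ccnd1 and Ccnd3 thus had a weak peak in WT pre-proB (3.68 and 4.07) and none in the 2 Erg-deficient pre-proB libraries. The B-lineage marker promoters moved with this comparison, 9 of 10 open in WT and 6 in Erg KO, with Cd79a, Vpreb1 and Pax5 at 11.4, 8.53 and 3.68 in WT and without a peak in Erg KO, and T-lineage promoters were open in 5 and 8 cases. Their part in the result was not tested.

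**Figure D5:**
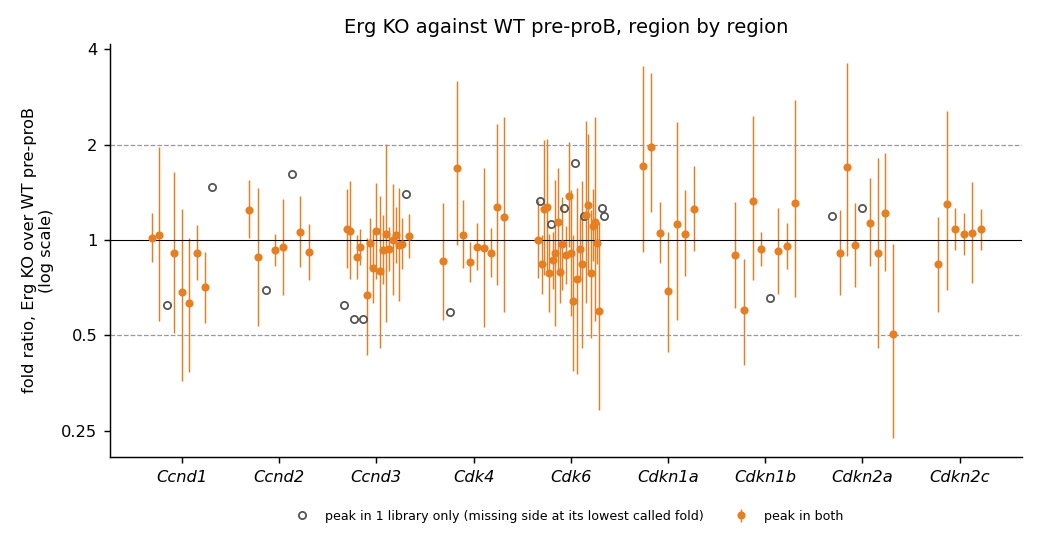
Centred ratio of the Erg KO to the WT pre-proB fold (vertical axis, log scale) for the 109 regions by gene, with bars for the 95% counting interval. Filled points had a peak in both libraries, open points in 1, and the dashed lines mark 2-fold. All points lie between the dashed lines, but the open points are bounds, so a 2-fold difference at those regions is not decided.

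Rescue and WT were compared at each stage. The pre-proB comparison shares the WT pre-proB library with the Erg KO comparison. There 0 of 111 regions were at least 2 times higher in Rescue, against 0.734%, and 3 of 111 (2.703%) lower, against 2.06%. The 3 lower regions were the Ccnd1 intron 4 region, the Cdk6 intron 2 region chr5:3363168-3363827 and the Ink4a promoter, where the centred ratio was 0.461 (0.215 to 0.887). With the higher of the Rescue peaks near the Ink4a start that ratio was 0.676, and 2 regions were lower. Without centring, which moved the median by 0.15 on the log2 scale, 2 were higher and 2 lower, and the Ink4a promoter was no longer among them. By presence, 9 of 97 (9.28%, interval 4.96 to 16.7%) were open in WT alone, against 5.25%, and 14 of 102 (13.7%, interval 8.36 to 21.7%) in Rescue alone, against 14.7%. The share in WT alone was 4% with lists cut to equal length and 3.95% with a −log10 q of at least 10, and the share in Rescue alone was 4.17% with lists cut to 38232 peaks. The regions in Rescue alone were led by the Ccnd2 intron 3 region and the Ccnd3 intron 1 region chr17:47515457-47515902.

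At the proB stage 7 of 131 (5.34%) regions were at least 2 times higher in Rescue, against 9.02%, and 8 of 131 (6.11%) lower, against 9.69%. The higher regions included both Cdk6 intron 4 elements and both Cdkn1a downstream regions. The lower ones included the second Cdk6 intron 5 element, at 0.414 (0.32 to 0.525), and the Ccnd3 downstream region, at 0.407 (0.277 to 0.5701). The elements higher in Rescue at Cdk6 intron 4 were those that were strong in pre-proB cells. Those lower at Cdk6 intron 5 and downstream of Ccnd3 were those strongest in WT proB, but a ratio to WT proB favours such regions. Not all of the 7 higher regions were strong in pre-proB cells. The Ccnd3 intron 1 region with peaks from the proB stage on was among them. So were the first Cdkn1a downstream region, which rose with stage, and chr5:3498644-3499029, without a WT or Rescue pre-proB peak. Regions open in WT proB alone numbered 25 of 115 (21.7%, interval 15.2 to 30.1%), against 19.8%, 8 of them at Cdkn2a, and regions open in Rescue proB alone 16 of 106 (15.1%, interval 9.51 to 23.1%), against 17.7%, 8 of them at Cdk6. The former share was 11.5% with lists cut to 38232 peaks, and the latter 9.09% with lists of equal length.

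At the preB stage 2 of 117 (1.71%) regions were higher in Rescue, against 3.46%, and 7 of 117 (5.98%) were lower, against 2.48%. Cdkn2a held 5 of the 7 lower regions. They were the Ink4a promoter, at 0.475 (0.3099 to 0.702), the region chr4:89306737-89307479, at 0.483 (0.286 to 0.773), the downstream region chr4:89272078-89273171, at 0.472 (0.315 to 0.684), and the 2 regions with no Rescue preB peak named above. Over the 9 Cdkn2a regions with a peak in both preB libraries the centred ratio ranged from 0.472 to 0.9096 with a median of 0.524, against 0.987 over the 100 regions of the 9 genes. The 3 lower Cdkn2a regions with a peak in both lay just past the 2-fold limit, and without centring 3 of 117 regions were lower and 4 higher, the 3 being the Cdk6 intron 2 region chr5:3355279-3356663 and the 2 Cdkn2a regions with no Rescue preB peak. Regions open in WT preB alone numbered 10 of 110 (9.09%, interval 5.01 to 15.9%), against 7.32%, and in Rescue preB alone 7 of 107 (6.54%, interval 3.205 to 12.9%), against 15.9%, a share under that of all coding genes.

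Across all 7 libraries, 31 of 153 regions (20.3%) had every proB and preB fold above every pre-proB fold, against 15.9% of background regions, and 20 (13.1%) had every later fold below every pre-proB fold, against 30.9%. A library without a peak was set at its weakest called fold. With each library divided by the median fold of the regions open in all 7, the counts were 39 (25.5%) and 15 (9.804%), against 19.6% and 28.8%. Cdk6 supplied 7 of the 31, Ccnd3 6 and Ccnd1 and Cdkn2a 5 each. Of the 20, Cdk6 supplied 7 and Cdk4 4, and Cdkn2a had none.

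Promoters of 26 other G1 and restriction point genes, from cyclins E and A to the E2F and retinoblastoma families, were open in all 7 libraries, as were 58.7% of all coding promoters. From WT pre-proB to WT proB 2 of the 26 were at least 2 times higher and 0 lower, against 9.74% and 4.92% of coding promoters. They were the inhibitor genes Cdkn1c, with 24.2, 47.8 and 53.5 in WT, 23.1 in the Erg KO library and 25.02, 52.6 and 71.2 in Rescue, and Cdkn2b, whose values are given above. The same 2 and Foxm1, a driver of mitotic genes, were at least 2 times higher from Rescue pre-proB to proB, against 11.2%, and 0 were lower, against 3.86%. No gene of the 26 differed by 2-fold between Erg KO and WT pre-proB, between Rescue and WT at any stage, or between proB and preB. Over all coding promoters the shares called in these comparisons lay between 0.352% and 6.09% in a direction.

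Motifs were searched within 150 bases on either side of each summit on both strands, as descriptions of sequence. Letters for ETS factors (CAGGAAG) were in 21 of 153 regions (13.7%) and in 19.04% of the regions of all coding genes, and in 19.2% of all 145247 regions. Those for E-proteins (CAGGTG) were in 39 (25.5%, against 26.8%), for RUNX (TGTGGTT) in 16 (10.5%, against 13.1%), for PU.1 (GAGGAAGT, which shares the GGAA core of the ETS letters) in 11 (7.19%, against 8.0%) and for MYC (CACGTG) in 11 (7.19%, against 6.19%). STAT letters (TTCNNNGAA) were in 9 (5.88%, against 8.52%), FOXO letters (TGTTTAC) in 8 (5.23%, against 3.80%), EBF1 letters (CCCNNGGGA) in 6 (3.92%, against 7.75%) and E2F letters (TTCCCGC) in 3 (1.96%, against 2.07%). Among the 23 regions higher in WT proB, 1 held the EBF1 letters (4.35%), against 20.5% of the 16414 background regions that were higher, and 5 held the ETS letters (21.7%, against 27.2%). In the elements printed above, the second Cdk6 intron 5 element held the RUNX letters in 2 places, the Ccnd3 and Cdkn2c elements the E-protein letters, the second Cdk6 intron 4 element the STAT letters and the Cdkn1a element the PU.1 letters. The Ccnd1, first Cdk6 intron 5 and first Cdk6 intron 4 elements held none of the 9. In RefSeq promoter sequences (GRCm38, from 250 bases before to 50 after the start), which were found for 7 of the 9 genes, the Arf promoter had 77.0% G and C bases and 45 CpG steps and the Ink4a promoter 60.3% and 12. The E2F letters were in the Arf promoter and a Cdkn2c promoter, as in 4.6% of 32851 promoters, and the MYC letters in the Cdk4, Cdk6 and a second Cdkn2c promoter, as in 7.15%. The first Ccnd3 promoter held the ETS and FOXO letters, the Cdk4 promoter also the RUNX letters and a Cdkn1a promoter the E-protein letters, and the Ink4a and Cdkn1b promoters, the other Cdkn1a promoter and the second Ccnd3 promoter held none of the 9.

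The genes with the most similar profile were sought by the Pearson r, over the 7 libraries, of the log2 share of all peak bases of a library that fell in the window of a gene, for 8 of the 9 genes, among 17013 to 17021 coding genes with other windows. The most similar to Ccnd1 was Shf (r = 0.99), to Ccnd2 Itpr3 (0.99) and to Ccnd3 Ppp1r7 (0.999). It was Cracr2a for Cdk4 (0.99). Among the inhibitors they were Crebzf for Cdkn1a (0.996), Prpf6 for Cdkn1b (0.99), Dvl1 for Cdkn2a (0.99) and 3110070M22Rik for Cdkn2c (0.98). The next most similar were, in the same order, 9830107B12Rik, Gm28043, Bcor, Zfp473, Mbd3, Prickle3, Zfc3h1 and Tex261. With 7 points and that many candidate genes such values are descriptions only.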

How the data were processed

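Each library was deposited by the authors as 1 narrowPeak list, with no pooling. The submitters' processing notes name CASAVA 1.8.2, Bowtie2, Picard, MACS2 and mm10, and no source used here gives their options. The methods name sonication and the labels Tn5 for fragmentation, which bears on fragment lengths and peak widths. The score the authors deposited equals −log10 q times 10 with the decimals dropped. The deposited fold is a ratio of summit to background pileup, with 1 added to both. Deposited −log10 p and −log10 q are those of the summit. Depth was read from the folds: in a library all peaks (100%) fell within 0.02 of whole multiples of 1 step, and the step and the fold yield the background pileup and the summit pileup. Read totals were not used here. Lists held 76465 to 105649 peaks, all on 21 chromosomes and within GRCm38 lengths.

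Overlapping peaks (at least 1 bp) of the 7 lists were merged into regions with Python 3.11.15, NumPy 2.4.6, pandas 2.3.3, SciPy 1.17.1 and Matplotlib 3.10.9. A region took the fold of its strongest peak in a library. Genes came from GENCODE M21 basic, exon and intron numbers from the principal transcript, and a promoter was 1000 bp on either side of a start. Background regions lay within 20 kb of a coding gene. Shares carry Wilson and folds Poisson-based 95% intervals, which cover counting error only. A missing peak was set at the lowest called fold of its library, which makes the ratio a bound. A region was called at a centred ratio of 2 or more. The code was tested on simulated peaks. With 1 library per group no test was run.

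The members and lists were chosen with earlier results of these data known. Regions were named by a rule, for each comparison and direction the 2 highest scores among regions open in 1 library only and per gene the largest range of fold, and the other regions named were chosen after their values were seen. Alternatives covered list length, the q threshold, the overlap, the window, the promoter width, the Rescue stages, promoters of other genes and the centring. Some genes and 1 region that these rules named are not reported here.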

Additional observations from a re-analysis of the deposited data

Results flagged for a closer look

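The number of open regions changed in opposite directions in WT and Rescue at 3 genes, each with 1 library per group, so the difference was not tested. At Cdkn1b the number went from 8 to 9 between WT pre-proB and proB and from 8 to 7 in Rescue, a difference of changes of 2 regions. At Cdkn1a it went from 8 to 11 between WT proB and preB and from 11 to 10 in Rescue, a difference of 4. At Cdkn2c it went from 6 to 5 between WT proB and preB and from 4 to 5 in Rescue, a difference of -2.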

How the results depend on the processing

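Of 118 recomputed shares and counts, over 12 settings, 88 stayed within the counting interval of the share or within 1.5 times the count, and 30 moved. Lists cut to the 76465 strongest peaks gave 5.21% of WT proB regions without a WT preB peak and 17.3% the other way, 4% of WT pre-proB regions without a Rescue peak and 9.09% of Rescue proB regions without a WT peak. At 38232 peaks the shares were 6.56% for WT proB against WT preB, 2.08% of Erg KO and 4.17% of Rescue pre-proB regions without a WT pre-proB peak and 11.5% of WT proB regions without a Rescue peak, 81 regions remained in place of 153, and 8 of the 9 genes had a promoter peak in all libraries. With a −log10 q of at least 10, 3.95% of WT pre-proB regions had no Rescue peak. Gene bodies alone held 87 regions, with 14.1% of WT proB regions without a Rescue peak. Rescue stages read from the source names gave 24.3% of pre-proB Rescue regions without a WT peak. When 50% of both peaks had to overlap, unshared shares were higher by construction: 33.3% and 40.6% for WT pre-proB and proB, 23.4% and 20.3% for WT proB and preB, 19.3% and 20.7% for WT and Erg KO, 19.3% for WT pre-proB against Rescue, 33.6% and 28.0% for WT and Rescue proB, and 18.7% and 14.5% for WT and Rescue preB. Ratios that were not centred gave 1 in place of 0 regions higher in Erg KO, 2 in place of 0 higher in Rescue pre-proB, 4 in place of 2 higher and 3 in place of 7 lower in Rescue preB, 14 in place of 8 lower in Rescue proB against Rescue pre-proB, and 7 in place of 4 higher in Rescue preB against Rescue proB. Windows of 50 kb, promoters of 2500 bp and the omission of promoters of other genes moved none. Leaving those promoters out, the higher Ink4a peak, leaving out the centring and dividing folds by the library median were chosen after seeing the data. Other than where a value or the construction is given, the cause was not tested.

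No paired analysis was possible because each group had 1 library, and for the same reason no library was left out. Depth limits the weak regions: 41 of 153 stayed under a fold of 5 in every library, and the absence of a peak does not show closed chromatin.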
